A study of Mus musculus with 3 samples.

Results

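The 44 genes that encode collagen chains, chosen by their symbols (*Col*, the number of the collagen type, *a* and the number of the chain), were examined among the 32285 genes counted in single cells of mouse inguinal fat. The cells were the stromal vascular fraction, which is what remains of adipose tissue once the lipid-filled adipocytes have been floated off after collagenase digestion, and CD45+ immune cells had been sorted out before 10x Genomics 3′ v3 libraries were made. There was 1 library per genotype, each from mice of both sexes pooled at 4 weeks of age. The study asked how loss of matrix Gla protein (MGP), an extracellular inhibitor of bone morphogenetic proteins, alters the progenitors of white fat, in which fibrosis is the deposition of excess collagen. Wild-type mice (WT, 12 mice) were compared with *Mgp*-KO mice (13 mice), which lack the gene in all cells (line B6.129S7-Mgptm1Kry/KbosJ), and with *Pd*-KO mice (11 mice), which carry floxed *Mgp* alleles and a *Pdgfra*-cre transgene that is active in progenitors but also in any other cell that has used the *Pdgfra* promoter. A library of floxed mice without the transgene was not analysed here, and the labels give a single batch for all libraries. Every value below therefore describes 3 libraries, not replicates of a genotype, and no p-value was computed between them.

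Collagens are trimers of chains that wind around each other in a triple helix, and the chains a cell makes decide which trimers it can assemble. Fibrillar collagens (types I, II, III, V, XI, XXIV and XXVII) build the tensile fibrils of connective tissue, network collagens (IV, VIII and X) build sheets such as the basement membrane, and type VI forms beaded microfilaments around cells. Fibril-associated collagens (IX, XII, XIV, XVI, XIX, XX and XXII) sit on the surface of fibrils, transmembrane collagens (XIII, XVII, XXIII and XXV) are anchored in the plasma membrane, and the multiplexins (XV and XVIII) lie in the basement membrane zone. In white fat, fibroblast-like progenitors are the main source of fibrillar collagen, whereas each adipocyte and each vessel is wrapped in a basement membrane of type IV collagen.

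Cells were kept with at least 2000 unique molecular identifiers (UMIs, 1 per captured transcript) and at most 10% mitochondrial UMIs, which left 10511 WT, 12575 *Mgp*-KO and 8819 *Pd*-KO cells with medians of 12802, 6445 and 8269 UMIs. The targeted gene followed the labels: *Mgp* stood at 508 UMIs per 1000000 UMIs (CPM) in WT adipose progenitor-like cells, 1.97 CPM in *Mgp*-KO and 1.21 CPM in *Pd*-KO, whereas smooth muscle-like cells of the *Pd*-KO library kept 235 CPM against 279 CPM in WT and endothelial-like cells had 42.5 CPM against 668 CPM. Cell types were gated on sums of marker genes that include no collagen and not *Mgp*, and 7 gated types are described: adipose progenitor-like cells (7497 WT, 11086 *Mgp*-KO and 6987 *Pd*-KO cells), endothelial-like (705, 207 and 657), smooth muscle-like (846, 154 and 334), epithelial-like (291, 524 and 105), early adipocyte-like (284, 64 and 42), myoepithelial-like (43, 129 and 20) and neural crest-like (138, 13 and 44). A gate on neuronal markers held 95 WT cells but stayed unnamed, because none of its markers was among its 10 leading genes and its cells were shallow, at a median of 3169 UMIs. The progenitor gate of WT and *Pd*-KO also had none of its markers among its 10 leading genes, but its cells had medians of 14067 and 9142 UMIs. Levels in CPM were taken from the sum of all cells in a type, and since 1 UMI is counted per transcript whatever its length, no division by length was made. Intervals are exact 95% intervals that cover counting error only.

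The sequences just upstream of collagen genes are shown because partner chains lie side by side in the genome. Those of the fibrillar chains *Col3a1* and *Col5a1* also differ in the motifs they hold. *Col4a1* and *Col4a2*, the paired chains of the common type IV trimer, are transcribed head to head on chromosome 8 with gene models that overlap by 22 bases, *Col4a3* and *Col4a4* are head to head on chromosome 1 with 71 bases between them, and *Col4a5* and *Col4a6* are head to head on chromosome X with 1308 bases between them. *Col3a1* and *Col5a2* lie tail to tail on chromosome 1, 24614 bases apart. RefSeq (GRCm38.p6) gave a promoter for 35 of the 44 genes, 38 promoters in all. Among their 250 bases before the start, searched on both strands, the GC box GGGCGG was in 57.9% (22 promoters) against 32.7% of all 32851 promoters, CCAAT in 34.2% (13) against 33.9%, and TATAAA in 13.2% (5) against 12.4%. The stretches below end at the base before the start and overlap no annotated exon. That of *Col3a1* (chr1:45311413-45311537, plus strand) holds a TATAAA at -117 to -112, in capitals; that of *Col5a1* (chr2:27886300-27886424, plus strand), whose product joins the same mixed fibrils, is 72.8% G and C against 40% in *Col3a1* and holds a GC box at -73 to -68, in capitals; and the 71 bases shared by *Col4a4* and *Col4a3* (chr1:82586850-82586920, minus strand, as read towards *Col4a4*) are 69.0% G and C and hold none of the 3 motifs, so nothing is in capitals there.
*Col3a1*: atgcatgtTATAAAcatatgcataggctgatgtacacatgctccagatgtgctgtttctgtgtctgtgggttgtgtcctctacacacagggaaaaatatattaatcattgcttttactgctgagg
*Col5a1*: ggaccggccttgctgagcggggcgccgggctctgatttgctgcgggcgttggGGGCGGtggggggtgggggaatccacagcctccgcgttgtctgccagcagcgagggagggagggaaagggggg
*Col4a4*: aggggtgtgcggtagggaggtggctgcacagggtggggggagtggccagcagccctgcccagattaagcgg

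Collagen transcripts made up a large part of the RNA of adipose progenitor-like cells and little of that of the other types. In progenitors all 44 chains together took 6.67% of UMIs in WT, 5.47% in *Mgp*-KO and 9.15% in *Pd*-KO (intervals 6.67% to 6.68%, 5.46% to 5.47% and 9.14% to 9.15%). The median progenitor spent 6.33% of its UMIs on collagen in WT (quartiles 4.42% and 8.61%), 4.86% in *Mgp*-KO (3.37% and 6.71%) and 8.74% in *Pd*-KO (6.46% and 11.2%). The *Pd*-KO library was thus the highest and the *Mgp*-KO library the lowest, and the quartile ranges of cells in these 2 libraries overlapped between 6.46% and 6.71%. Early adipocyte-like cells came next, at 2.07%, 1.86% and 3.30% in WT, *Mgp*-KO and *Pd*-KO, in the same order of libraries. Cells of that gate could also carry progenitor markers, and *Pd*-KO gave only 42 of them. Their median UMIs were 24724.5, 11029.5 and 12002.5, above the 14067, 6452 and 9142 of progenitors. The part of progenitor RNA in their share was not tested. The share was 1.79% in WT and 1.89% in *Pd*-KO neural crest-like cells. It was 0.874%, 0.631% and 0.865% in smooth muscle-like cells, 0.719%, 0.392% and 0.630% in endothelial-like cells and 0.416%, 0.153% and 0.407% in epithelial-like cells. In these vascular and epithelial types *Mgp*-KO was also the lowest, while WT and *Pd*-KO lay close together.

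**Figure D1:**
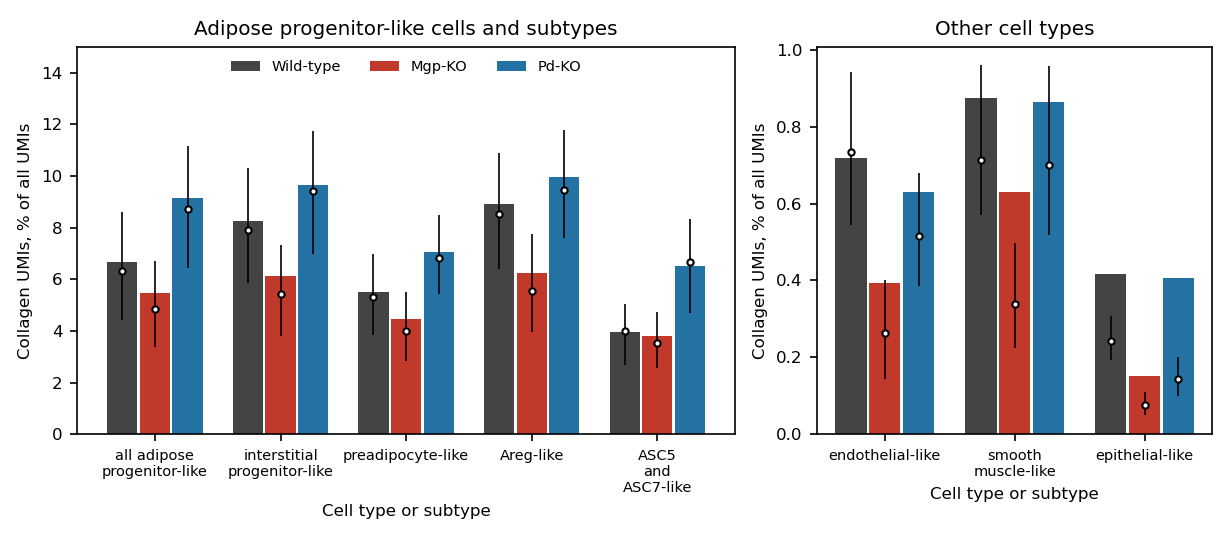
Share of UMIs from the 44 collagen chains, in percent, by cell type and library. Bars give the share of the summed cells, circles the median over cells and lines its quartiles. Left, adipose progenitor-like cells and their 4 named subtypes. Right, on its own scale, the vascular and epithelial types. The *Pd*-KO bar is the highest in progenitors (9.15%) and in each subtype, and the *Mgp*-KO bar is the lowest in each type shown. In the types on the right the type I and III chains lay below their free RNA level.

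Progenitors differ among themselves, and the libraries held different mixtures of them. Within the progenitor gate, cells with at least 3 of the 6 markers of a subtype list were called interstitial progenitor-like (*Dpp4*, *Pi16* and others; 24.6% of WT, 39.3% of *Mgp*-KO and 58.5% of *Pd*-KO progenitors), preadipocyte-like (*Icam1*, *Pparg* and others; 32.3%, 18.4% and 11.97%), Areg-like (*F3*, *Gdf10* and others, named for adipogenesis regulatory cells; 8.79%, 5.33% and 5.72%) or ASC5 and ASC7-like (*Sdc1*, *Fgf10* and others; 1.72%, 4.19% and 2.59%). The collagen share was 8.27%, 6.12% and 9.67% in interstitial progenitor-like cells of WT, *Mgp*-KO and *Pd*-KO, and 8.91%, 6.27% and 9.95% in Areg-like cells. It was lower in preadipocyte-like cells, at 5.51%, 4.46% and 7.07%, and in ASC5 and ASC7-like cells, at 3.97%, 3.80% and 6.52%. The order of libraries was therefore the same in each of these 4 subtypes as in all progenitors. Progenitors with fewer than 3 markers of any list were 29.3%, 30.4% and 19.1%, and those tied between lists 3.37%, 2.42% and 2.10%. In WT, 682 of 1843 interstitial progenitor-like and 1510 of 2418 preadipocyte-like cells had only 3 markers of their list. So did 263 of 659 Areg-like and 92 of 129 ASC5 and ASC7-like cells.

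By class, fibrillar chains supplied 89.1% of the collagen UMIs of WT progenitors, 90.3% in *Mgp*-KO and 92.2% in *Pd*-KO. Beaded filament chains followed with 5.61%, 4.93% and 4.29%, and network chains with 3.22%, 2.38% and 1.46%. Fibril-associated chains took 0.943% in WT, 1.77% in *Mgp*-KO and 1.62% in *Pd*-KO, the multiplexins 1.06%, 0.513% and 0.422%, and transmembrane chains 0.0190%, 0.0407% and 0.0150%. Endothelial-like cells had a different make-up, with network chains at 31.8%, 45.9% and 48.4% of their collagen UMIs, multiplexins at 6.42%, 10.5% and 9.73% and transmembrane chains at 1.93%, 6.02% and 3.61%. These parts are of a total that includes type I and III chains, which lay below their free RNA level in these cells. The larger network part in *Mgp*-KO than in WT came with less *Col4a1*, at 1050 against 1440 CPM. In smooth muscle-like cells network chains took 22.9%, 28.3% and 31.8% and beaded filament chains 9.86%, 10.3% and 14.9%. There too the type I and III chains lay below free RNA, and *Col4a1* was at 982 CPM in *Mgp*-KO against 1261 CPM in WT. In epithelial-like cells fibrillar chains still took 81.6%, 63.0% and 73.6%, at levels below those of free RNA as given further on.

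**Figure D2:**
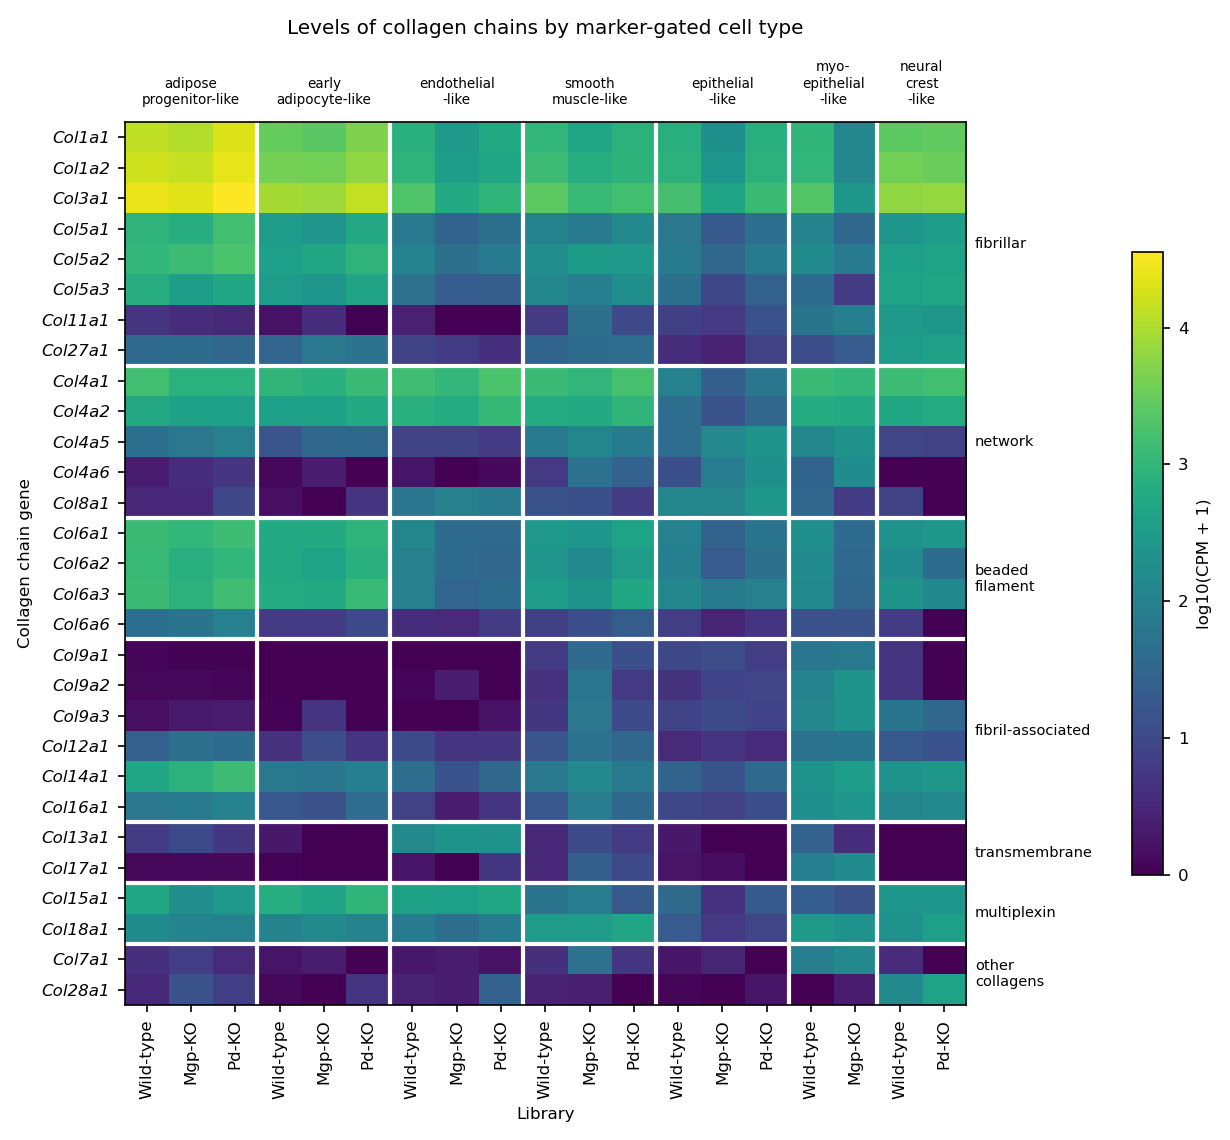
Levels of the 29 chains that reached 50 CPM in a cell type, as log10(CPM + 1), grouped by class in rows, with 1 column per cell type and library of at least 40 cells. The fibrillar chains *Col1a1*, *Col1a2* and *Col3a1* are the brightest rows in progenitors (10770 to 35839 CPM), *Col4a1* and *Col4a2* are bright in vascular, stromal and myoepithelial columns, and *Col7a1*, *Col17a1* and the type IX chains stand out in the myoepithelial columns.

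Fibrillar chains were led by *Col3a1*, the single chain of type III collagen of compliant tissues, at 26401, 21966 and 35839 CPM in WT, *Mgp*-KO and *Pd*-KO progenitors. *Col1a2*, a chain of type I collagen, stood at 17059, 14245 and 24030 CPM. Its partner *Col1a1*, of which each type I trimer needs a pair, stood at 13344, 10770 and 20539 CPM. Each of these 3 chains was the highest in *Pd*-KO and the lowest in *Mgp*-KO. The type V chains, which join type I fibrils and limit their width, were at 900, 675 and 1475 CPM for *Col5a1*, 1039, 1323 and 1855 CPM for *Col5a2* and 679, 348 and 531 CPM for *Col5a3*. Unlike the type I and III chains, *Col5a2* was lowest in WT and *Col5a3* highest in WT. Early adipocyte-like cells had 8628, 7594 and 13917 CPM of *Col3a1*.

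In endothelial-like and epithelial-like cells the type I and III chains lay below their level in free RNA. *Col3a1* stood at 1991, 600 and 937 CPM in endothelial-like cells of WT, *Mgp*-KO and *Pd*-KO, and *Col1a1* at 780, 294 and 611 CPM. Free RNA, read from barcodes with 10 to 100 UMIs, carried 7541, 16764 and 33155 CPM of *Col3a1*, so that the endothelial level was 26.4%, 3.58% and 2.83% of the free RNA level. *Dcn*, a proteoglycan of stromal cells that endothelial cells should lack, stood in the same cells at 11.2%, 4.07% and 3.44% of its own free RNA level, and *Dpt*, another stromal gene, at 24.4% in WT. These endothelial levels of type I and III chains are given as measured and are not read as expression. The same holds for epithelial-like cells, where *Col1a1* was at 20.9%, 2.49% and 2.73% of the free RNA level. Neural crest-like cells, a gate built to hold Schwann cells, differed from these. In WT they held *Col3a1* at 6367 CPM, *Col1a2* at 3814 CPM and *Col1a1* at 2565 CPM. These were 84.4%, 79.8% and 72.4% of the free RNA level, and *Col5a2* was at 102.5%. The stromal genes *Dcn*, *Lum*, *Dpt* and *Clec3b* were there at 12.5%, 26.1%, 31.7% and 25.2% of theirs. *Col11a1*, a chain of thin fibrils best known from cartilage, reached 289 CPM (interval 252 to 330) in WT and 261 CPM (186 to 355) in *Pd*-KO neural crest-like cells, against 3.94 and 2.19 CPM in progenitors. *Col27a1*, a fibrillar chain known from cartilage, reached 326 CPM (287 to 369) and 398 CPM (304 to 511) there, against 35.6 and 31.3 CPM in progenitors. In all of these pairs the intervals were far apart.

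Network chains were found in stroma, in vessels and in epithelium. *Col4a1*, a chain of the type IV network of nearly all basement membranes, stood at 1506 CPM in WT progenitors but at 795 and 803 CPM in *Mgp*-KO and *Pd*-KO progenitors. In endothelial-like cells it stood at 1440, 1050 and 1834 CPM, and in smooth muscle-like cells at 1261, 982 and 1684 CPM. Progenitors were thus the highest of these 3 types in WT and the lowest in both knockouts, and the endothelial level was 230%, 151% and 215% of that in free RNA. *Col4a2*, its partner, stood at 565, 406 and 379 CPM in progenitors, 778, 632 and 1134 CPM in endothelial-like cells and 637, 614 and 961 CPM in smooth muscle-like cells. *Col4a5*, a chain of epithelial and smooth muscle basement membranes, was at 44.2, 62.9 and 94.4 CPM in progenitors and at 40.6, 136 and 224 CPM in epithelial-like cells. In smooth muscle-like cells it was at 77.4, 120 and 72.9 CPM, and in *Mgp*-KO myoepithelial-like cells at 214 CPM. *Col4a6*, which forms trimers with the product of *Col4a5*, stood at 12.01 CPM (interval 9.54 to 14.9), 80.4 CPM (72.7 to 88.7) and 190 CPM (167 to 216) in epithelial-like cells, against 1.18, 2.95 and 4.18 CPM in progenitors. It was also found in myoepithelial-like cells, at 28.1 CPM in WT and 161 CPM in *Mgp*-KO. *Col8a1*, a short-chain collagen of vessels and epithelia, stood at 121, 117 and 256 CPM in epithelial-like cells and at 60.0, 97.0 and 72.2 CPM in endothelial-like cells, against 2.16, 2.16 and 8.51 CPM in progenitors. *Col4a3* and *Col4a4*, best known from kidney, stayed under 50 CPM in each type taken whole.

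The beaded filament chains, the 3 partners of the usual type VI trimer, were stromal with a lower level in smooth muscle-like cells. *Col6a1* stood at 1256, 1026 and 1361 CPM in WT, *Mgp*-KO and *Pd*-KO progenitors, *Col6a2* at 1149, 755 and 1045 CPM, and *Col6a3* at 1283, 849 and 1419 CPM. In smooth muscle-like cells *Col6a3* was at 315, 230 and 515 CPM, below its 461, 715 and 1177 CPM in free RNA. *Col6a1* was there at 65.0%, 29.7% and 41.4% of its free RNA level. The part of free RNA was not tested. Among the other type VI chains only *Col6a6* passed 50 CPM, at 45.2, 54.8 and 96.6 CPM in progenitors.

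Of the fibril-associated chains *Col14a1*, whose product lies on the surface of type I fibrils, was the most abundant in progenitors, at 539 CPM in WT, 844 CPM in *Mgp*-KO and 1326 CPM in *Pd*-KO. *Col16a1*, found near fibrils and microfibrils, stood at 63.8, 70.7 and 103 CPM, and *Col12a1*, a long fibril-bound chain of tendon and fascia, at 23.6, 46.9 and 39.8 CPM. Over types with at least 50 cells in a library, both were highest in *Mgp*-KO myoepithelial-like cells, at 248.97 and 58.5 CPM. *Col16a1* also reached 120 CPM in WT neural crest-like cells. The type IX chains of this class were high in myoepithelial-like cells, the contractile cells around mammary ducts, of which WT gave 43 and *Mgp*-KO 129. There *Col9a2* reached 110 CPM (interval 82.0 to 145) in WT and 231 CPM (198 to 269) in *Mgp*-KO, *Col9a3* 117 CPM (87.6 to 152) and 205 CPM (174 to 241), and *Col9a1* 60.4 and 68.0 CPM. These are the 3 partner chains of type IX collagen, best known from cartilage. Progenitors held *Col9a3* at 0.519 and 1.16 CPM in the same libraries.

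Transmembrane chains were rare in progenitors and marked other types. *Col13a1*, a membrane-anchored collagen of cell junctions, stood at 136 CPM (interval 126 to 146), 229 CPM (196 to 265) and 219 CPM (203 to 237) in endothelial-like cells of WT, *Mgp*-KO and *Pd*-KO, against 5.49, 9.67 and 4.34 CPM in progenitors. Its level in free RNA was 4.35, 15.2 and 15.3 CPM. *Col17a1*, the hemidesmosome collagen of basal epithelium, stood at 92.8 CPM (67.2 to 125) in WT and 154 CPM (127 to 185) in *Mgp*-KO myoepithelial-like cells, while the luminal epithelial-like cells held 5, 2 and 0 UMIs of it. *Col7a1*, whose product forms the anchoring fibrils under such epithelium, was at 86.3 CPM (61.7 to 118) and 137 CPM (112 to 167) in the same myoepithelial-like cells. *Col23a1* and *Col25a1* stayed under 50 CPM in each type.

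Among the multiplexins, *Col15a1*, of fat, muscle and capillary basement membranes, stood at 544 CPM in WT progenitors, 170 CPM in *Mgp*-KO and 286 CPM in *Pd*-KO. In endothelial-like cells it was at 389, 369 and 535 CPM, and in early adipocyte-like cells at 692, 453 and 967 CPM. It was highest in WT in progenitors but not in these other types, and endothelial-like cells lay above progenitors in both knockouts and below them in WT. Epithelial-like cells, also highest in WT, held 36.6, 3.40 and 18.5 CPM of *Col15a1*, below its level in free RNA. Among types taken whole, *Col18a1*, whose product is the precursor of endostatin, was highest in smooth muscle-like cells, at 316, 312 and 472 CPM. It stood at 165, 111 and 99.4 CPM in progenitors and 72.2, 43.4 and 78.5 CPM in endothelial-like cells. The ASC5 and ASC7-like subtype of progenitors lay above smooth muscle-like cells in every library, as given further on. The smooth muscle level was 346%, 263% and 456% of that in free RNA. *Col28a1*, a collagen known from glia of peripheral nerve, stood at 144 CPM (118 to 174) in WT and 430 CPM (333 to 547) in *Pd*-KO neural crest-like cells, against 2.29 and 6.13 CPM in progenitors.

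In all, 43 of the 44 chains had a UMI in the kept cells of every library. The exception was *Col22a1*, a chain of tissue junctions, with 18 UMIs in WT, 22 in *Pd*-KO and 0 in *Mgp*-KO, which allows a level of up to 0.0335 CPM there. Of the chains, 29 reached 50 CPM in a cell type with at least 50 cells in a library and 15 did not. The highest level of these 15 ranged from 1.32 CPM for *Col26a1* to 39.8 CPM for *Col4a4*. *Col2a1* and *Col10a1*, chains of cartilage and of its mineralizing zone, were among them, with 11, 7 and 4 UMIs and with 5, 4 and 1 UMIs over all kept cells of WT, *Mgp*-KO and *Pd*-KO. Over the 4 types with at least 50 cells in every library, 18 of the 29 had the same highest type in all 3 libraries. It was progenitors for 11 of them, smooth muscle-like cells for 3 (*Col18a1*, *Col7a1* and *Col17a1*), endothelial-like for 2 (*Col4a2* and *Col13a1*) and epithelial-like for 2 (*Col4a6* and *Col8a1*). *Col7a1* and *Col17a1* stood at only 3.17 and 2.34 CPM in WT and 4.17 and 9.02 CPM in *Pd*-KO smooth muscle-like cells, not apart from the next type. Their highest levels were in myoepithelial-like cells, which are not among the 4 types. The highest type was apart from the next by its interval for 22, 22 and 21 of the 29 chains in WT, *Mgp*-KO and *Pd*-KO. Progenitors were the highest type for 17 chains in WT, 12 in *Mgp*-KO and 13 in *Pd*-KO.

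Within progenitors, 8 chains set interstitial progenitor-like apart from preadipocyte-like cells by at least 2-fold in every library, relative to the median gene of the contrast. *Col14a1* was the 1 chain higher in interstitial progenitor-like cells in all 3, at 1048, 1274 and 1700 CPM against 216, 311 and 291 CPM (log2 ratio 2.37, 2.10 and 2.69). The other 7 were higher in preadipocyte-like cells. Of the 25 chains with at least 100 UMIs in the contrast in every library, at least 2-fold higher in interstitial progenitor-like cells were 7, 3 and 5 chains in WT, *Mgp*-KO and *Pd*-KO, beside 6.89%, 6.48% and 8.8% of all genes tested, and at least 2-fold lower were 7, 9 and 9 chains beside 6.89%, 8.14% and 7.37%. *Col15a1* stood at 74.1, 18.6 and 38.3 CPM in interstitial progenitor-like cells and at 819, 358 and 1023 CPM in preadipocyte-like cells (-3.38, -4.20 and -4.59). The type IV pair went the same way, with *Col4a1* at 344, 196 and 148 CPM against 2277, 1802 and 2913 CPM (-2.64, -3.13 and -4.16), and *Col4a2* with log2 ratios of -2.55, -3.14 and -4.05. *Col18a1* stood at 39.1, 21.9 and 24.2 CPM against 244, 205 and 307 CPM (-2.55, -3.16 and -3.52). *Col4a3*, *Col23a1* and *Col27a1* complete the 7.

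**Figure D3:**
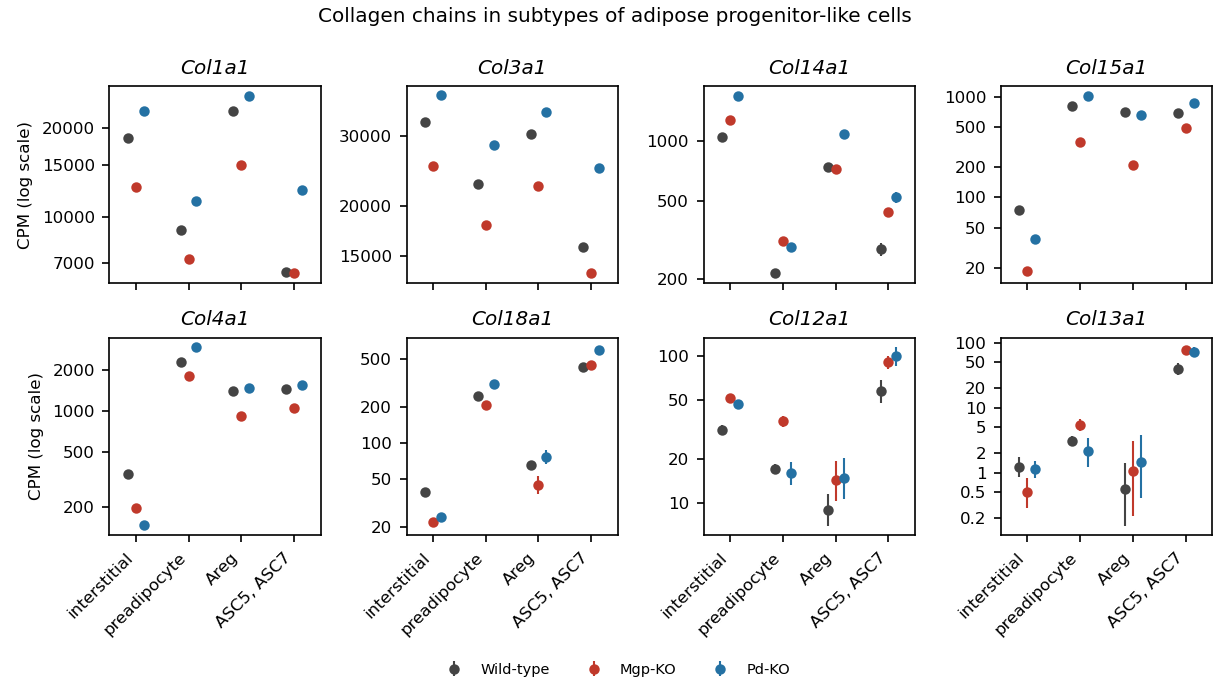
Levels of 8 chains in CPM, on a log scale, in the 4 named progenitor subtypes of each library, with exact Poisson 95% intervals as lines. *Col15a1*, *Col4a1* and *Col18a1* are lowest in interstitial progenitor-like cells and *Col14a1* is highest there, while *Col13a1* is highest in ASC5 and ASC7-like cells (39.7 to 78.4 CPM).

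Areg-like cells shared the high fibrillar level of interstitial progenitor-like cells but not their low type IV level. At least 2-fold higher in Areg-like than in interstitial progenitor-like cells were 6, 7 and 9 of the 23 chains tested in every library, in WT, *Mgp*-KO and *Pd*-KO, beside 5.69%, 5.67% and 6.76% of all genes, and lower were 2, 4 and 3 chains beside 6.7%, 7.78% and 8.96%. Past 2-fold in all 3 libraries were *Col4a1*, *Col4a2*, *Col4a3*, *Col4a4*, *Col15a1* and *Col23a1*, all higher, and *Col12a1* and *Col6a6*, both lower. *Col4a4* stood at 78.2, 57.6 and 137 CPM in Areg-like cells against 26.2, 27.4 and 36.0 CPM in interstitial progenitor-like cells. Its head-to-head partner *Col4a3* stood at 15.1, 17.5 and 47.3 CPM against 1.13, 2.27 and 3.41 CPM. ASC5 and ASC7-like cells were compared with preadipocyte-like cells over 23 chains tested in every library. At least 2-fold higher were the same 3 chains in each library (*Col12a1*, *Col13a1* and *Col23a1*), beside 4.08%, 4.67% and 3.27% of all genes, and lower were 5, 5 and 4 chains beside 7.9%, 8.42% and 4.67%, among them *Col4a3*, *Col4a4* and *Col4a5* in all 3 libraries. *Col13a1* stood at 39.7, 78.4 and 73.5 CPM in ASC5 and ASC7-like cells against 3.07, 5.52 and 2.14 CPM in preadipocyte-like cells. *Col18a1* was also at its progenitor maximum in that subtype, at 424, 443 and 593 CPM, above the 316, 312 and 472 CPM of smooth muscle-like cells.

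For the comparison of genotypes, log2 ratios of CPM were centred on the median gene, and a gene was counted where it differed by at least 2-fold and had at least 100 UMIs in both libraries together. Long genes were higher in both knockout libraries than in WT whatever their function. In progenitors the median log2 ratio of the 25% of genes with the longest genomic span (over 57.9 kb) was 0.77 in *Mgp*-KO over WT and 0.92 in *Pd*-KO over WT, against -0.30 and -0.45 in the 25% with the shortest (under 9.47 and 9.55 kb). For *Pd*-KO over *Mgp*-KO these medians were 0.18 and -0.12. The file headers name Cell Ranger 4 for WT and Cell Ranger 7.1.0 for both knockouts, whether reads in introns were counted is not given in the sources used here, and software version and genotype cannot be told apart. Collagen genes differ widely in span, from 16.8 kb for *Col1a1* to 213 kb for *Col14a1* among the abundant chains, so in progenitors each ratio to WT past 2-fold is followed by its value less the running median of the 200 genes nearest in span, called span-corrected. In the other types the counts of chains are given with and without it. The share of all genes under the correction or without centring was not computed there, so those counts are not read as particular to collagen.

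**Figure D4:**
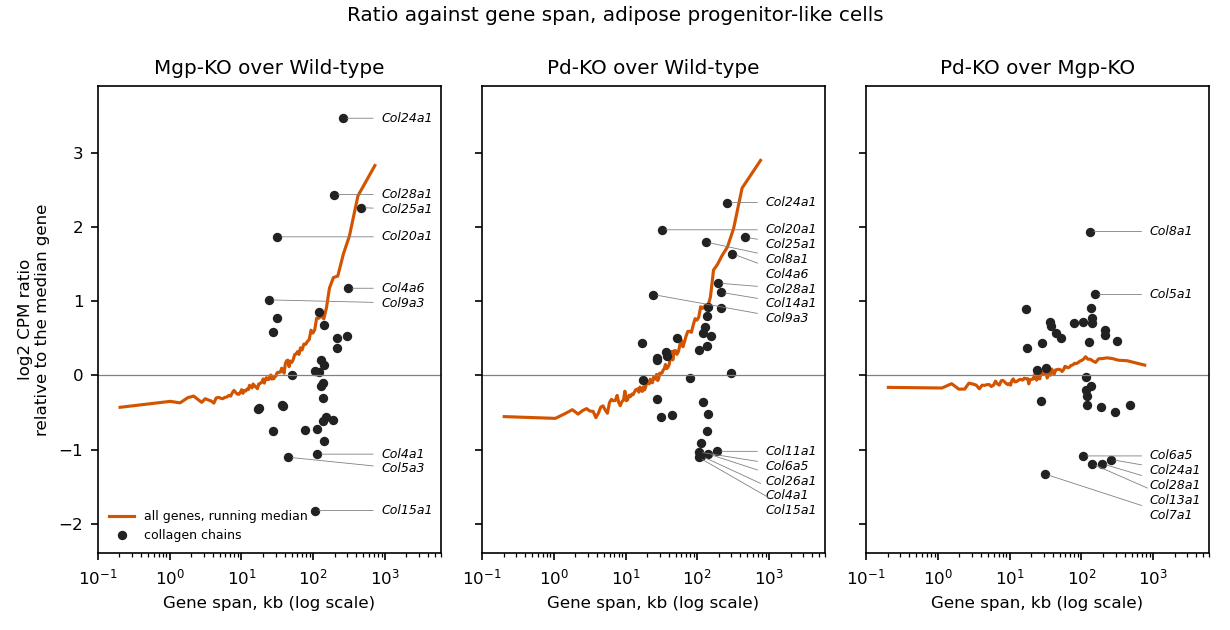
Log2 ratio relative to the median gene against genomic span in kb (log scale) for collagen chains in adipose progenitor-like cells, in the 3 comparisons, with the running median over 200 genes of all kinds as a line. The line climbs with span in both comparisons with WT (medians of the shortest and longest 25% of genes from -0.30 to 0.77 and from -0.45 to 0.92) and much less in *Pd*-KO over *Mgp*-KO (-0.12 to 0.18).

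In *Mgp*-KO against WT progenitors, 3 abundant chains of basement membranes and fibrils were at least 2-fold lower and 6 rare chains at least 2-fold higher, of 35 chains tested. Of all genes tested, 4.48% were as much lower and 15.1% as much higher, and the median chain was at 0.01. *Col15a1* had a log2 ratio of -1.82 (interval -1.85 to -1.80; span-corrected -2.44), *Col5a3* of -1.10 (-1.12 to -1.08; -1.27) and *Col4a1* of -1.06 (-1.08 to -1.05; -1.85). All 3 stayed past 2-fold lower after the correction, but without centring *Col5a3* and *Col4a1* stood at -0.96 and -0.92 and only *Col15a1* (-1.68) stayed. The 6 higher chains each had between 91 and 1070 UMIs in the *Mgp*-KO library. They were *Col24a1*, a fibrillar chain (3.47, span-corrected 1.81), *Col28a1* (2.44 and 1.07), *Col25a1*, a transmembrane chain (2.26 and -0.26), *Col20a1*, a fibril-associated chain (1.87 and 1.82), *Col4a6* (1.17 and -0.67) and *Col9a3* (1.02 and 1.06). *Col25a1* and *Col4a6* thus turned direction with the correction. Of the other chains at or above 500 CPM, the log2 ratio was -0.45 for *Col1a1*, -0.40 for *Col1a2*, -0.41 for *Col3a1*, -0.56 for *Col5a1* and 0.21 for *Col5a2*. It was -0.62 for *Col4a2*, -0.43 for *Col6a1*, -0.75 for *Col6a2*, -0.74 for *Col6a3* and 0.50 for *Col14a1* (span-corrected -0.81). None of these 10 passed 2-fold, and 8 of them lay below the median gene.

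In *Pd*-KO against WT progenitors, 8 of 37 chains were at least 2-fold higher and 5 at least 2-fold lower, beside 16.9% and 7.76% of all genes tested, with a median chain of 0.31. This comparison shares the WT library with the one before. *Col14a1* was the 1 abundant chain among the higher ones, with a log2 ratio of 1.12 (1.10 to 1.13; span-corrected -0.45). The others were *Col24a1* (2.33 and 0.55), *Col20a1* (1.96 and 1.94), *Col25a1* (1.86 and -0.75), *Col8a1* (1.80 and 0.82), *Col4a6* (1.64 and -0.32), *Col28a1* (1.24 and -0.30) and *Col9a3* (1.09 and 1.15). After the span correction only *Col9a3* and *Col20a1* stayed past 2-fold higher. Lower were *Col15a1* at -1.11 (-1.13 to -1.08; -1.91) and *Col4a1* at -1.09 (-1.10 to -1.07; -2.05), and the rare chains *Col6a5* (-1.03 and -1.82), *Col11a1* (-1.02 and -2.52) and *Col26a1* (-1.06 and -1.98). Without centring none of these 5 passed 2-fold, with *Col15a1* at -0.93 and *Col4a1* at -0.91. Of the other chains at or above 500 CPM, the ratio was 0.44 for *Col1a1*, 0.31 for *Col1a2*, 0.26 for *Col3a1*, 0.53 for *Col5a1*, 0.66 for *Col5a2* and -0.54 for *Col5a3*. It was -0.76 for *Col4a2*, -0.06 for *Col6a1*, -0.32 for *Col6a2* and -0.03 for *Col6a3*. Without centring *Col6a1* and *Col6a3* turned to 0.12 and 0.15, and with the span correction *Col5a1* and *Col5a2* turned to -0.53 and -0.25. The type I and III chains lay above the median gene here, where in *Mgp*-KO over WT they lay below it, and none passed 2-fold in either.

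**Figure D5:**
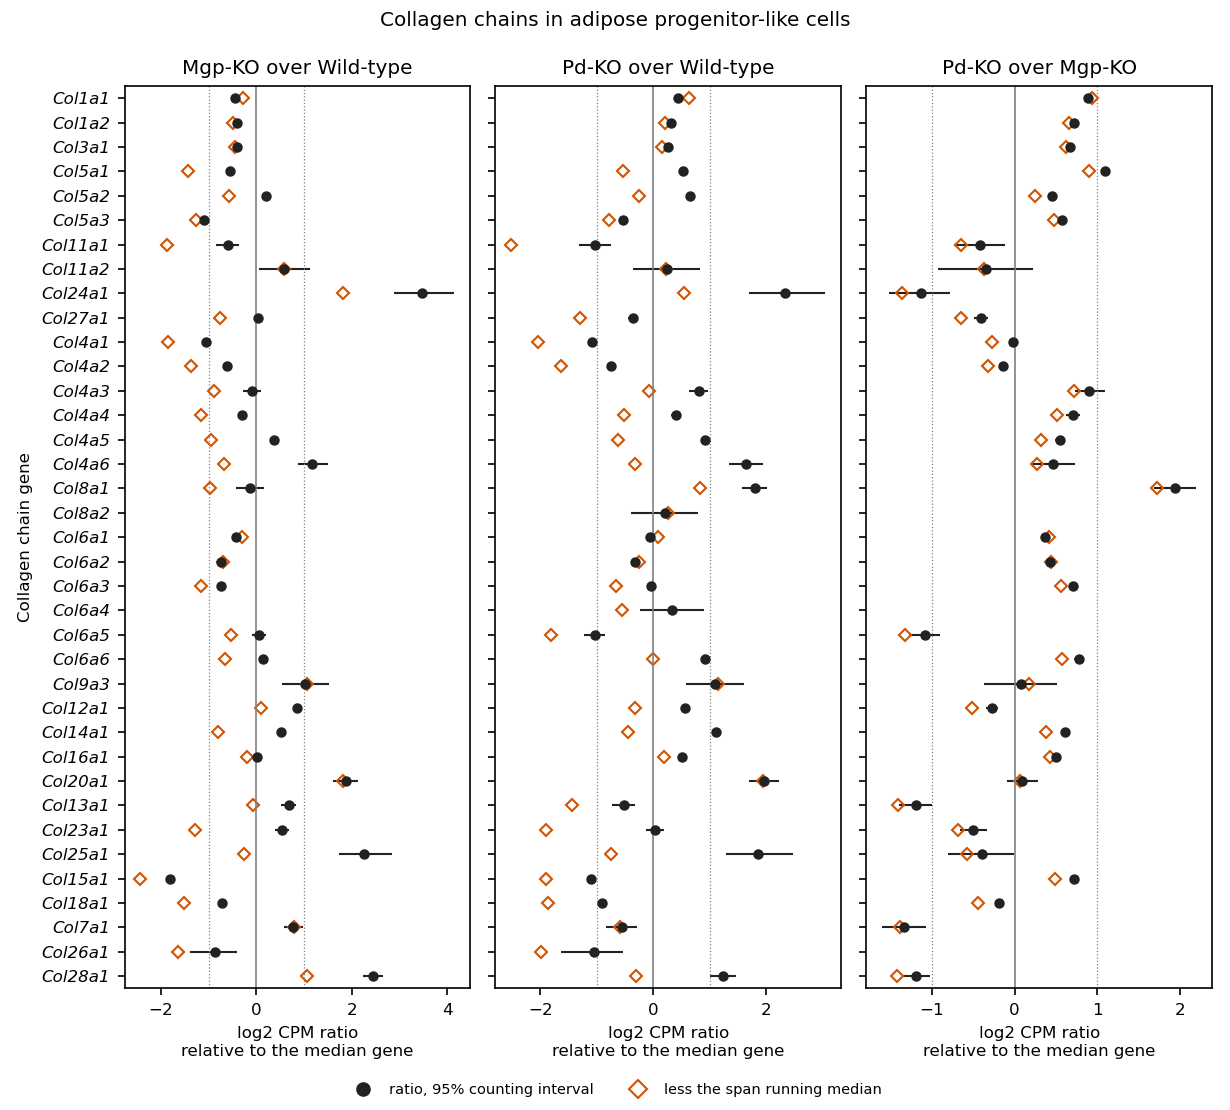
Log2 ratio of CPM relative to the median gene for the collagen chains tested in adipose progenitor-like cells, in the 3 comparisons of libraries. Black points carry exact 95% counting intervals, orange diamonds give the value less the running median by gene span, and dotted lines mark 2-fold. *Col15a1* (-1.82 and -1.11) and *Col4a1* (-1.06 and -1.09) lie past 2-fold lower in both knockouts over WT, of which only *Col15a1* in *Mgp*-KO (-1.68) does so without centring.

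*Pd*-KO and *Mgp*-KO were made with the same software version and were also compared with each other. Here 2 of 34 chains were at least 2-fold higher in *Pd*-KO and 5 at least 2-fold lower, beside 2.44% and 4.56% of all genes, and the median chain was at 0.40. At 1.5-fold, 11 chains were higher, beside 8.72% of all genes. *Col5a1* (1.09, interval 1.07 to 1.11; span-corrected 0.90) and *Col8a1* (1.94, 1.69 to 2.20; 1.72) were the chains past 2-fold. *Col1a1* was at 0.89, *Col1a2* at 0.72, *Col3a1* at 0.67, *Col5a3* at 0.57 and *Col5a2* at 0.45, so that all of the abundant fibrillar chains were higher in *Pd*-KO than in *Mgp*-KO. *Col15a1* was at 0.72, *Col6a3* at 0.70, *Col14a1* at 0.62, *Col6a2* at 0.43 and *Col6a1* at 0.37, whereas the type IV pair was nearly level at -0.02 for *Col4a1* and -0.14 for *Col4a2*. The 5 lower chains were all rare: *Col7a1* (-1.33), *Col13a1* (-1.19), *Col28a1* (-1.19), *Col24a1* (-1.13) and *Col6a5* (-1.09).

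Because the libraries differed in their subtypes, the same ratios were read within subtypes. In interstitial progenitor-like cells *Col4a1* had a log2 ratio of -1.39 in *Pd*-KO over WT, but in preadipocyte-like cells 0.10, in Areg-like cells -0.17 and in ASC5 and ASC7-like cells 0.03. *Col15a1* behaved alike in *Pd*-KO over WT, at -1.13, 0.07, -0.33 and 0.23 in the same order. In *Mgp*-KO over WT, by contrast, *Col15a1* was lower in each subtype, at -2.12, -1.32, -1.90 and -0.65. When the subtypes were weighted as in WT, 8 chains were at least 2-fold higher and none at least 2-fold lower in *Pd*-KO over WT, against 8 and 5 before, and *Col15a1* remained among the 3 lower chains in *Mgp*-KO over WT, with *Col11a1* and *Col26a1*. The share of all genes under this weighting is not given here. In each subtype *Col1a1* was lower in *Mgp*-KO than in WT and higher in *Pd*-KO than in *Mgp*-KO, at -0.68, -0.44, -0.76 and -0.14 in *Mgp*-KO over WT and 0.78, 0.53, 0.67 and 0.95 in *Pd*-KO over *Mgp*-KO. *Col1a1* in *Pd*-KO over WT was 0.12, 0.07, -0.07 and 0.85, and *Col14a1* was 0.52, 0.17, 0.33 and 0.81. The *Col1a1* ratio of *Pd*-KO over WT was thus nearer to 0 within the 3 larger named subtypes than in all progenitors (0.44).

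In endothelial-like cells the chains that are abundant in stroma were the ones that differed between libraries. In *Mgp*-KO over WT, 10 of 16 chains tested were at least 2-fold lower and 0 higher, beside 3.89% and 4.62% of genes, and in *Pd*-KO over WT 5 of 16 were lower and 0 higher, beside 3.71% and 10.2%. The summed level of the 7 progenitor markers in these cells was 1227, 544 and 509 CPM in WT, *Mgp*-KO and *Pd*-KO. *Col6a1* had a like course, at 121, 38.3 and 36.0 CPM, whereas *Col1a1*, at 780, 294 and 611 CPM, did not. The part of stromal RNA in the result was not tested. The 10 were *Col1a1* (-1.496), *Col1a2*, *Col3a1*, the type V chains *Col5a1*, *Col5a2* and *Col5a3*, the type VI chains *Col6a1*, *Col6a2* and *Col6a3*, and *Col14a1*, between -1.17 for *Col5a2* and -1.82 for *Col3a1*. The 5 in *Pd*-KO were *Col3a1* (-1.25), *Col5a3* (-1.40), *Col6a1* (-1.91), *Col6a2* (-1.80) and *Col6a3* (-1.42). After the span correction 11 chains were lower in *Mgp*-KO and 9 in *Pd*-KO, without a share of all genes to set beside them. Between the knockouts *Col14a1* alone of 15 chains passed 2-fold, higher in *Pd*-KO at 1.20 on 10 UMIs in *Mgp*-KO, beside 2.81% of genes higher and 1.65% lower. The chains above the free RNA level differed less: *Col4a1* was at -0.54 and 0.19, *Col4a2* at -0.39 and 0.38, *Col15a1* at -0.16 and 0.30, and *Col13a1* at 0.67 (interval 0.42 to 0.90) and 0.53 (0.38 to 0.69). None of these 4 passed 2-fold against WT, and in *Pd*-KO over WT all 4 turned direction with the span correction, to -0.53, -0.35, -0.39 and -0.19. *Col8a1*, also above its free RNA level (10.4, 12.7 and 26.9 CPM), was at 0.61 (0.22 to 0.97) and 0.11 (-0.15 to 0.36). Its span-corrected values were 0.19 and -0.67.

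In smooth muscle-like cells *Mgp*-KO over WT gave 2 chains at least 2-fold higher and 3 lower of 19 tested, beside 6.71% and 4.35% of genes. *Col16a1* had a log2 ratio of 2.25 (1.75 to 2.73) on 56 UMIs in *Mgp*-KO and *Col12a1* of 1.68 (1.05 to 2.25) on 34 UMIs, and the lower chains were *Col1a1* (-1.23), *Col1a2* (-1.06) and *Col3a1* (-1.24). All 3 lower chains lay below their level in free RNA in these cells. *Col1a1* was at 28.7%, 5.92% and 3.35% of it in WT, *Mgp*-KO and *Pd*-KO, and *Col3a1* at 34.5%, 7.03% and 4.48%. The stromal gene *Dpt* was at 34.6%, 3.02% and 5.76%, and *Dcn* at 13.5%, 5.33% and 2.41%. *Lum* was at 29.8%, 17.3% and 2.22%, and *Clec3b* at 25.5%, 1.61% and 2.33%. The part of free RNA was not tested. The summed myoepithelial markers in these cells were at 125 CPM in WT, 596 CPM in *Mgp*-KO and 102 CPM in *Pd*-KO, with *Krt14* at 7.51, 126 and 17.4 CPM, and their part in the result was not tested. *Col9a2*, which was high in myoepithelial-like cells, moved with them at 3.503, 61.6 and 4.86 CPM. The 2 higher chains, *Col16a1* and *Col12a1*, also had their highest levels in *Mgp*-KO myoepithelial-like cells, as given above. Of the 19 chains 0 were higher and 1 lower in *Pd*-KO over WT, beside 11.4% and 3.71% of genes: *Col15a1*, at -1.82 (-2.49 to -1.26). With the span correction *Col1a2* in *Mgp*-KO fell short of 2-fold (-0.98), and *Col3a1* (-1.07), *Col4a5* (-1.44) and *Col14a1* (-1.28) passed it beside *Col15a1* in *Pd*-KO, which made 4 lower. Between the knockouts *Col6a3* (1.08) was higher and *Col14a1* (-1.11) and *Col16a1* (-1.45) lower in *Pd*-KO, of 15 chains, beside 8.83% and 4.21% of genes. *Col18a1* and *Col4a1*, both above their free RNA level in these cells, did not reach 2-fold. *Col18a1* was at -0.12 in *Mgp*-KO over WT and 0.39 in *Pd*-KO over WT, and *Col4a1* at -0.46 and 0.23. In *Pd*-KO over WT the span correction turned them to -0.28 and -0.43.

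In epithelial-like cells *Col4a5* and *Col4a6* were higher in both knockouts than in WT, and the type VI chains *Col6a1* and *Col6a2*, both multiplexins and *Col5a3* were lower. All of these lower chains lay below their level in free RNA and are not read as expression. Of that level *Col6a1* was at 21.5%, 3.25% and 5.28% in WT, *Mgp*-KO and *Pd*-KO, *Col15a1* at 13.8%, 1.84% and 6.99% and *Col18a1* at 21.1%, 3.87% and 7.79%. *Col8a1*, which like *Col4a6* was higher in these cells than in the other 3 common types in every library, was at -0.18 in *Mgp*-KO over WT and 0.87 in *Pd*-KO over WT (span-corrected -0.96 and -0.17). The leading genes of these cells differed by library, with *Sbp*, *Defb50* and *Fgb* in WT, *Crym*, *Pcp4* and *Cxcl15* in *Mgp*-KO and *Pcp4*, *Krt8* and *Krt7* in *Pd*-KO. Whether the gate held different mixtures of epithelial cells was not tested. In *Mgp*-KO over WT, 13 of 19 chains were at least 2-fold lower and 2 higher, beside 2.79% and 10.6% of genes, and in *Pd*-KO over WT 5 of 17 were lower and 2 higher, beside 2.86% and 12.7%. The 2 higher chains were *Col4a6*, at 2.61 (2.27 to 2.98; span-corrected 1.06) and 3.78 (3.41 to 4.17; 1.79), and *Col4a5*, at 1.61 (1.40 to 1.82; 0.42) and 2.26 (2.02 to 2.51; 0.66), in *Mgp*-KO and *Pd*-KO over WT. After the span correction *Col4a6* stayed past 2-fold in both and *Col4a5* in neither. The lower chains in *Mgp*-KO ran from -3.52 for *Col15a1* to -1.11 for *Col14a1* and took in the type I, III and V chains, *Col6a1*, *Col6a2*, *Col4a1*, *Col4a2* and *Col18a1*. Those in *Pd*-KO were *Col5a3*, *Col6a1*, *Col6a2*, *Col15a1* and *Col18a1*, between -1.004 and -1.40. The span correction left 14 chains lower in *Mgp*-KO and 10 in *Pd*-KO, and without centring 12 and 1 were lower, the 1 being *Col18a1*. For these counts no share of all genes under the same setting was computed. The summed progenitor markers of these cells were at 932, 363 and 649 CPM in WT, *Mgp*-KO and *Pd*-KO, whose part was not tested. Between the knockouts 11 of 14 chains were at least 2-fold higher and 0 lower in *Pd*-KO, beside 1.19% and 1.24% of genes, from 1.01 for *Col8a1* to 1.72 for *Col1a1*, and 5 were after the span correction.

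Pairs of chains, partners in a trimer or related chains, did not keep a fixed ratio across libraries. *Col1a1* with *Col3a1* and *Col15a1* with *Col18a1* are pairs of related chains, not partners. In progenitors there were 0.782, 0.756 and 0.855 *Col1a1* UMIs per *Col1a2* UMI in WT, *Mgp*-KO and *Pd*-KO, and 0.505, 0.490 and 0.573 per *Col3a1* UMI. *Col4a1* per *Col4a2* was 2.67, 1.96 and 2.12, *Col6a1* per *Col6a2* was 1.09, 1.36 and 1.30, and *Col5a1* per *Col5a2* was 0.866, 0.510 and 0.795. *Col15a1* per *Col18a1* was 3.30, 1.53 and 2.88. The intervals of the 3 libraries did not overlap for any of these 6 pairs. The genes of a pair differ in span, and the part of span was not tested for them.

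The enzymes and receptors around collagen were read in progenitors from 4 lists, beside 15.1% of all genes tested higher and 4.48% lower in *Mgp*-KO over WT and 16.9% and 7.76% in *Pd*-KO over WT. Of 15 genes of prolyl and lysyl modification, 1 was at least 2-fold higher and 1 lower in *Mgp*-KO over WT and 2 and 0 in *Pd*-KO over WT, with list medians of -0.58 and -0.39. Of 12 genes of folding, export and trimming, 2 were higher and 0 lower in *Mgp*-KO over WT, and 2 and 1 in *Pd*-KO over WT (medians -0.24 and 0.31). None of the 5 crosslinking enzymes passed 2-fold in either comparison (medians -0.22 and 0.19). Of the 8 collagen receptors tested of 9, 1 and 3 were higher and none lower (medians 0.31 and 0.57). Past 2-fold in both knockouts over WT were 4 genes, all higher, with spans of 99 to 206 kb. *Tll1*, a protease that trims procollagen, stood at 2.03, 17.4 and 31.4 CPM in WT, *Mgp*-KO and *Pd*-KO (log2 ratio 2.95 and 3.77, span-corrected 1.65 and 2.25). *Adamts3*, which removes procollagen ends, was at 2.60 and 2.29 (span-corrected 1.28 and 0.75). *Itga2*, a subunit of an integrin that binds collagen, was at 1.03 and 1.92 (0.47 and 1.19), and *P3h2*, a prolyl hydroxylase, at 1.32 and 1.54 (0.55 and 0.63). *Tll1* was thus the 1 gene of the 4 that stayed past 2-fold after the correction in both comparisons.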

How the data were processed

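The files deposited by the authors hold unnormalized UMI counts of every barcode, 1 file per library; the paper names Cell Ranger 6.1.1 and mm10, the submitters' processing notes GRCm39, and the file headers Cell Ranger 4 (WT) and 7.1.0 (both knockouts). Of 32285 genes, 32158 matched spans of GENCODE M21 (GRCm38). Barcodes with at least 2000 UMIs and at most 10% mitochondrial UMIs were kept, and the kept libraries shared 40 (WT and *Mgp*-KO), 37 (WT and *Pd*-KO) and 35 (both knockouts) barcodes. Cells were thinned to 2000 UMIs and gated on summed markers, with cutoffs of 4 to 12 UMIs set after the pooled sums had been seen; 329 WT, 227 *Mgp*-KO and 179 *Pd*-KO cells lay within 2 UMIs of the progenitor cutoff. Cells past no gate or several gates were left out. Subtypes needed 3 of 6 markers. No doublet caller was run, and leaving out cells above 2 times the median UMIs of their type and library was an alternative. Counts were summed per type and library, with exact Poisson, Clopper-Pearson and conditional binomial 95% intervals. Log2 ratios (pseudocount 0.5 UMIs) needed 100 UMIs in both libraries together and were centred on the median gene, which moved them by 0.14, 0.18 and 0.04 for *Mgp*-KO over WT, *Pd*-KO over WT and *Pd*-KO over *Mgp*-KO. With 1 library per genotype no test was made, and a call is a 2-fold difference. Chains were named at 50 CPM or more in a type, at 500 CPM or more or past 2-fold in a progenitor comparison, and other pathway genes where past 2-fold in both knockouts over WT; in the other types the chains named in a comparison were chosen after their values were seen. The members, lists and tests were chosen with earlier results of these data known. Ratio and interval code was tested on simulated counts. Python 3.11.15, numpy 2.4.6, scipy 1.17.1, pandas 2.3.3 and matplotlib 3.10.9 were used.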

Additional observations from a re-analysis of the deposited data

Results flagged for a closer look

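A few chains moved in opposite directions in different cell types under the same comparison of libraries, each by more than its counting interval. With 1 library per genotype the differences between types were not tested. Values are log2 ratios relative to the median gene.

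*Col14a1*, the most abundant fibril-associated chain, was lower in *Mgp*-KO than in WT endothelial-like cells (-1.73) and higher in smooth muscle-like cells (0.98), a difference of -2.71, and lower in epithelial-like cells (-1.11), a difference of 2.09 between smooth muscle-like and epithelial-like cells. Between the knockouts, in *Pd*-KO over *Mgp*-KO, it was lower in smooth muscle-like cells (-1.11) and higher in progenitors (0.62), endothelial-like (1.20) and epithelial-like cells (1.22), with differences of 1.72 between progenitors and smooth muscle-like cells, 2.31 between endothelial-like and smooth muscle-like cells and -2.32 between smooth muscle-like and epithelial-like cells. The *Mgp*-KO smooth muscle-like cells enter all 5 of these differences, and they are the ones with summed myoepithelial markers of 596 CPM, whose part was not tested. *Col14a1* also lay below its free RNA level in endothelial-like cells, at 27.7% in WT and 2.87% in *Mgp*-KO (10 UMIs). It was at 18.2% and 3.10% in epithelial-like and at 43.6% and 31.0% in smooth muscle-like cells. The part of free RNA was not tested.

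*Col5a2*, a type V chain, was higher in *Mgp*-KO smooth muscle-like cells (0.71) and lower in endothelial-like (-1.17) and epithelial-like cells (-1.32) against WT, with differences of -1.88 between endothelial-like and smooth muscle-like cells and 2.04 between smooth muscle-like and epithelial-like cells. In WT and *Mgp*-KO it was at 28.3% and 4.53% of its free RNA level in endothelial-like cells. The same levels were 47.9% and 28.8% in smooth muscle-like and 19.8% and 2.95% in epithelial-like cells, and the part of free RNA was not tested. In *Pd*-KO over WT it was higher in progenitors (0.66) and lower in endothelial-like cells (-0.68), a difference of 1.34. With the running median by gene span taken off, these became -0.25 and -1.46 and no longer lay in opposite directions, whereas the other differences given here kept theirs. *Col4a5* was lower in smooth muscle-like (-0.81) and higher in epithelial-like cells (0.61) in *Pd*-KO over *Mgp*-KO, a difference of -1.41. The *Mgp*-KO smooth muscle-like cells, with their myoepithelial markers, enter this difference and those of *Col5a2* in *Mgp*-KO over WT. *Col4a5* stood at 214 CPM in *Mgp*-KO myoepithelial-like cells, and the part of such cells was not tested.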

How the results depend on the processing

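No paired analysis was possible because there was 1 library per genotype. The number of chains highest in progenitors lay between 12 and 18 over all alternatives run, and within 1.5 times its value in 24 of 24. The progenitor collagen share kept its order (*Mgp*-KO below WT below *Pd*-KO) in 9 of 9 settings. For WT it was 6.664% with at least 1000 UMIs and, for WT, *Mgp*-KO and *Pd*-KO, 6.660%, 5.535% and 9.174% with at least 4000 UMIs, 6.814%, 5.253% and 8.970% with cells weighted equally, 6.974%, 5.661% and 9.330% with a stricter gate, 6.631%, 5.460% and 9.134% with the gate on unthinned counts, 7.143%, 5.631% and 9.065% with 10% of UMIs taken off as free RNA and 6.722%, 5.447% and 9.138% without cells of high UMI counts. With at most 5% mitochondrial UMIs it was 6.636% in WT and 9.190% in *Pd*-KO. In the other types *Mgp*-KO was the lowest in 9 of 9 settings.

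Counts of progenitor chains past 2-fold stayed within 1.5 times in 87 of 108 values. The alternative counts that follow stand without the share of all genes under the same setting and are not read as particular to collagen. In *Mgp*-KO over WT the 3 lower chains became 5 with the stricter gate, 1 without centring, 6 without a filter, 1 with a *Pdgfra* UMI as the gate, 11 after the span correction and 9 at 1.5-fold. In *Pd*-KO over WT the 5 lower chains became 3 with at most 5% mitochondrial UMIs and with the gate on unthinned counts, 0 with cells weighted equally, without centring and with subtypes weighted as in WT, 8 without a filter, 2 with the *Pdgfra* gate and 10 after the span correction, and the 8 higher became 5 with free RNA taken off and 2 after the span correction. In *Pd*-KO over *Mgp*-KO the 5 lower became 3 with cells weighted equally, with the stricter gate and with subtypes weighted as in WT, and the 2 higher became 1 after the span correction and 11 at 1.5-fold. Among the progenitor chains past 2-fold, the span correction was the 1 alternative that turned a direction: *Col4a6* (-0.67) and *Col25a1* (-0.26) in *Mgp*-KO over WT, and *Col4a6* (-0.32), *Col14a1* (-0.45), *Col25a1* (-0.75) and *Col28a1* (-0.30) in *Pd*-KO over WT. Chains under 2-fold also turned, some of them without centring. In the other types 25 of 36 counts stayed within 1.5 times. After the span correction, in *Pd*-KO over WT, the lower chains went from 5 to 9 in endothelial-like, 1 to 4 in smooth muscle-like and 5 to 10 in epithelial-like cells, the 2 higher epithelial chains became 1 in each knockout over WT, and in *Pd*-KO over *Mgp*-KO the higher went from 11 to 5 in epithelial-like and 1 to 2 in smooth muscle-like cells. Without centring, in *Pd*-KO over *Mgp*-KO, the 1 higher chain became 2 in endothelial-like and 3 in smooth muscle-like cells, and in *Pd*-KO over WT 0 higher became 1 in smooth muscle-like and 5 lower became 1 in epithelial-like cells. Whether span follows software or genotype was not tested. The weighting of subtypes, totals without the 44 chains and the settings for the other types were alternatives chosen after seeing the data. The shallower knockout libraries limit what can be read of rare chains, and with 1 library per genotype no value has a replicate error.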
